A study of Rattus norvegicus with 12 samples.

Results

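The complement genes outside C1q were followed here as 9 listed genes of rat: C1r, C1s, C2, Cfb and C3, which encode components of the cascade, and Serping1, Cfi, Cd55 and Cd59, which encode inhibitors of it. They were chosen by name, with earlier results of these data known. Every probe set that the array's annotation gives to them was used, 9 probe sets in all, among 10969 genes that the annotation names. Of the 9 genes, 7 had a probe set of their own, 3 components (C1r, C1s and C3) and 4 inhibitors, with 2 probe sets for Cd55. C2 and Cfb were measured through 1 probe set that is annotated to both, so its values belong to neither gene alone. Cd59 is listed under its current RefSeq symbol Cd59b.

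The ganglia came from adult male Sprague Dawley rats, with no allele or agent named in the labels, of 2 genetic sub-lines called High Pain (HP) and Low Pain (LP). The groups, with 3 Affymetrix arrays each and 12 in all, were HP rats with spinal nerve ligation (SNL), HP rats with sham surgery, LP rats with SNL, and LP rats with sham surgery. SNL, a model of neuropathic pain, ties the L4 and L5 spinal nerves, and the ganglia were taken 3 days later. The sham operation left the nerve undamaged, and no time is given for the sham groups. Dorsal root ganglia hold the cell bodies of sensory neurons, satellite glia around them, Schwann cells, fibroblasts, vessels and macrophages. No label says whether an array holds RNA of 1 animal or of several pooled, nor that replicates came from different animals, and the spread behind the p-values is that between arrays, which may be technical. Of 14 sensory neuron markers, 13 were measured, none was at 0 on any array, and their summed signal lay between 44476.8 and 63015.3 on the 12 arrays. The median signal per array lay between 278.4 and 313.2, log2 signals of arrays in the same group correlated at 0.941 to 0.965, and the number of arrays limits the precision.

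Complement is a cascade of plasma proteins in which each protease cuts and activates the next. In the classical pathway C1q binds its target and activates the serine proteases C1r and C1s. C1s cuts C4 and C2, whose fragments form an enzyme that cuts C3, and factor B (Cfb) takes the place of C2 in the alternative pathway. C3 fragments tag surfaces for phagocytes and lead on to the membrane attack complex. Host inhibitors act at each step. Serping1 (C1 inhibitor) inactivates C1r and C1s, Cd55 speeds the decay of the enzymes that cut C3, factor I (Cfi) cuts C3b and C4b, and Cd59 blocks assembly of the membrane attack complex. The liver makes most complement of plasma, while macrophages and fibroblasts are known local sources, and complement at neurons is known for tagging synapses and debris for removal.

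Of the 4 inhibitors, Cd55 fell after SNL and Serping1 rose, whereas the 3 components with a probe set of their own all rose, in HP and in LP rats alike. Counting a gene as changed where limma's adjusted p (Benjamini-Hochberg over all 10411 genes of a comparison, two-sided) was under 0.05, 4 of the 7 genes were higher and 1 was lower after SNL in HP, beside 7.02% of all genes higher and 6.61% lower. In LP the counts were again 4 higher and 1 lower, beside 7.66% and 6.79% of all genes, and averaged over the lines they were 4 and 1, beside 13.0% and 11.8%. The median log2 difference of the 7 genes was 0.90 in HP and 1.14 in LP, against -0.00 and 0.02 over all genes. Since the genes were chosen with earlier results known, these counts and medians are a description and not an independent test. In HP the count of 5 called genes was 3 with each array's ratio of the 3' to the 5' beta-actin probe set as a covariate, the genes without a call being C1r and Serping1. Log2 differences are given ± SE and were taken after adding 1 to each signal, so those of dim genes are understated. Signals are linear array intensities with group means ± SD (n = 3).

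**Figure D1:**
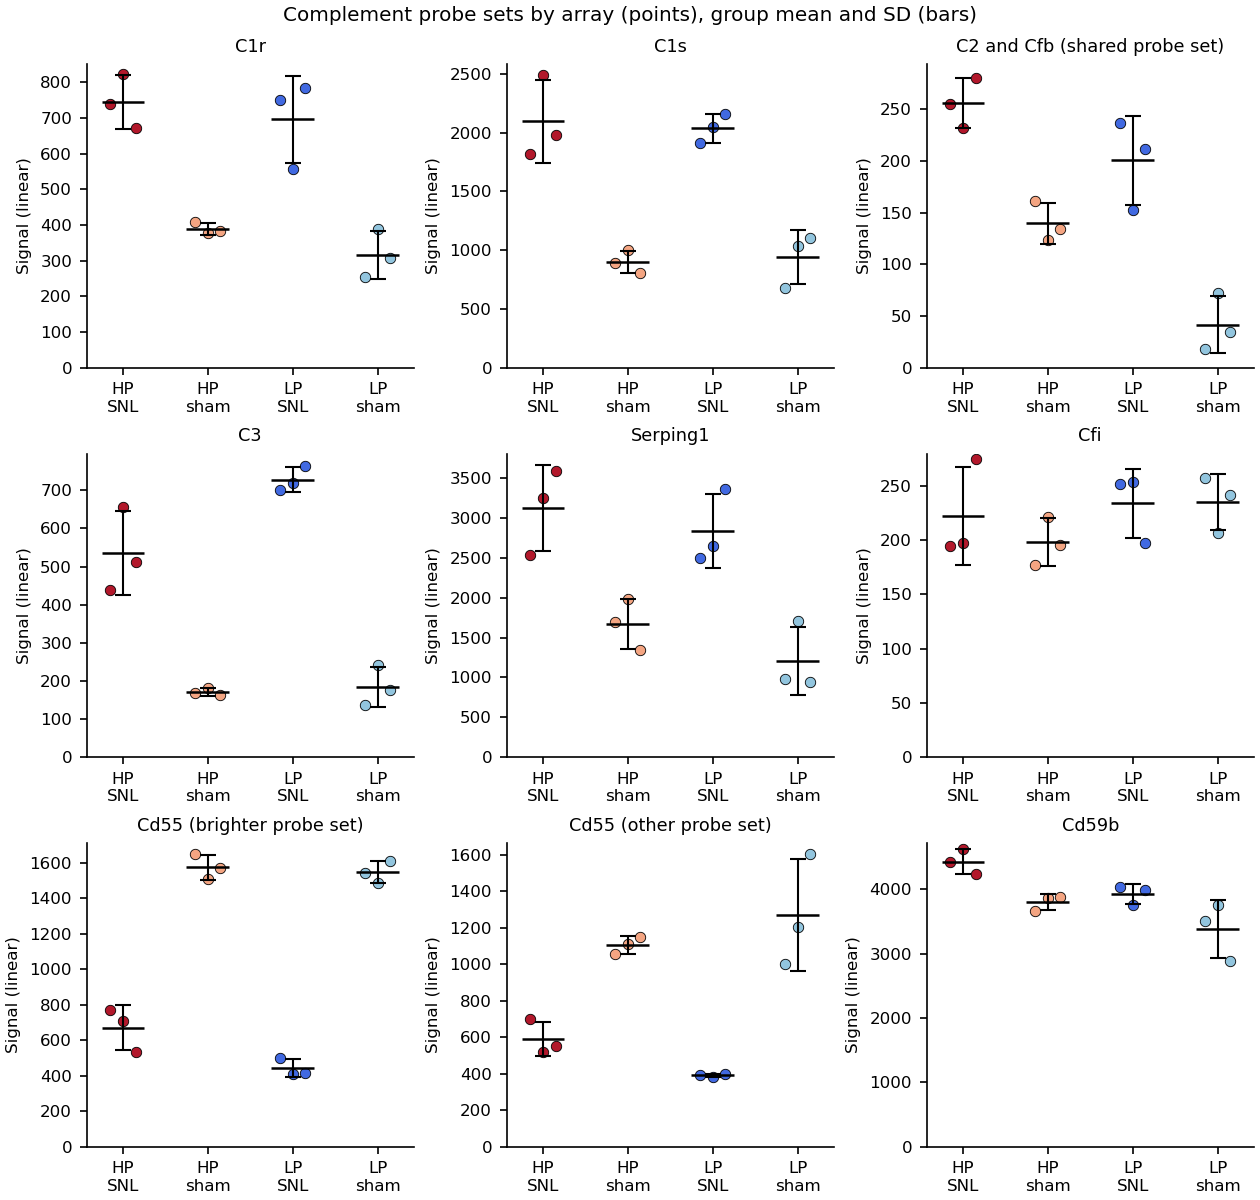
Signal (linear array intensity, axes from 0) of each complement probe set on each of the 12 arrays, with points for arrays and bars for the group mean ± SD, the SNL group left of its sham group. C3 after SNL lies above every sham array in each line, and both Cd55 probe sets after SNL lie below every sham array.

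C1r and C1s, the proteases of the C1 complex, rose together. C1r had signals of 738.1, 821.7 and 671.8 in HP SNL ganglia, against 407.0, 376.3 and 384.1 in HP sham ganglia. It had 749.1, 557.4 and 782.7 in LP SNL ganglia, against 254.1, 387.7 and 307.6 in LP sham ganglia. In both lines every SNL array was above every sham array, and LP SNL replicate 2 was the lowest of the SNL arrays. Such groups without overlap and with the SNL arrays higher occurred for 17.2% of all genes in HP and for 16.5% in LP. The log2 difference of C1r was 0.93 ± 0.17 in HP (adjusted p = 0.00645) and 1.14 ± 0.17 in LP (adjusted p = 0.00191). With the actin ratio as a covariate the HP value was 0.81 (adjusted p = 0.0537).

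C1s had signals of 1819.4, 2490.2 and 1975.6 in HP SNL ganglia, against 893.3, 998.4 and 807.5 in HP sham ganglia. It had 1908.8, 2044.5 and 2153.6 in LP SNL ganglia, against 680.0, 1036.0 and 1103.6 in LP sham ganglia. In both lines every SNL array was above every sham array, as for 17.2% of all genes in HP and 16.5% in LP. The log2 difference was 1.21 ± 0.19 in HP (adjusted p = 0.00269) and 1.14 ± 0.19 in LP (adjusted p = 0.00297), so the mean signal was more than doubled in each line. In the RefSeq annotation of the rat, C1r and C1s lie next to each other on chromosome 4, with 0 coding genes between them. In these whole ganglia, more cells of a type and more RNA per cell cannot be told apart.

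The shared probe set of C2 and Cfb (1389470_at) was dimmer and gave a call only in LP. Its signals were 255.5, 231.7 and 280.2 in HP SNL ganglia, against 161.5, 123.1 and 134.5 in HP sham ganglia. They were 236.9, 152.8 and 211.6 in LP SNL ganglia, against 18.5, 72.2 and 34.4 in LP sham ganglia. The SNL arrays were above the sham arrays in both lines, and the LP sham arrays were the lowest of all 12. LP sham arrays all below HP sham arrays occurred for 6.91% of probe sets. The line difference after sham surgery did not pass by limma (adjusted p = 0.168). SNL arrays all above sham arrays occurred for 15.6% of probe sets in HP and 15.4% in LP. In a fit of all 15866 probe sets the log2 difference was 0.87 ± 0.39 in HP (adjusted p = 0.203) and 2.42 ± 0.39 in LP (adjusted p = 0.00326), beside 5.42% and 6.35% of probe sets called higher. Averaged over the lines it was 1.65 ± 0.27 (adjusted p = 0.00192), beside 10.9% called higher. Fitted with only the HP arrays, the HP difference passed (adjusted p = 0.0277), and with the actin ratio as a covariate it was 0.37 (adjusted p = 0.656). On the LP sham arrays this probe set stood at the percentiles 7.7, 17.2 and 8.6 of the array, so the size of the LP difference depends on the added constant: it was 2.00 with 16 added in place of 1. C2 and Cfb are neighbours on chromosome 20, with 0 coding genes between them, and C4a and C4b also share a probe set, which was not used.

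C3, on which the pathways converge, had the largest rise of the 7 genes with a probe set of their own in both lines. Its signals were 439.2, 655.2 and 511.8 in HP SNL ganglia, against 169.6, 182.3 and 163.0 in HP sham ganglia. They were 700.3, 718.4 and 764.3 in LP SNL ganglia, against 137.6, 241.5 and 175.6 in LP sham ganglia. In both lines every SNL array was above every sham array, as for 17.2% of all genes in HP and 16.5% in LP. Every LP SNL array was also above every HP SNL array, as for 9.1% of genes, but this difference between the lines did not pass (adjusted p = 0.445). The log2 difference was 1.62 ± 0.20 in HP, a 3.07-fold rise (adjusted p = 0.000769), and 2.01 ± 0.20 in LP, a 4.02-fold rise (adjusted p = 0.000182). Among all 10411 genes C3 ranked 87 from the highest in HP and 52 in LP.

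The sequences before the start sites are shown for the 2 rising components that have an entry in the RefSeq promoter table (rat build GRCr8). Each run is the 250 bases upstream of the start, 5' to 3' on the gene's strand, with C3 at chr9:2201340-2201589 on the minus strand and C1r at chr4:159098763-159099012 on the plus strand. Capitals mark matches, on either strand, to a C/EBP motif (TTGCNNAA) and a kappaB motif (GGG and CC with 5 bases between them), where overlapping matches run together.
C3: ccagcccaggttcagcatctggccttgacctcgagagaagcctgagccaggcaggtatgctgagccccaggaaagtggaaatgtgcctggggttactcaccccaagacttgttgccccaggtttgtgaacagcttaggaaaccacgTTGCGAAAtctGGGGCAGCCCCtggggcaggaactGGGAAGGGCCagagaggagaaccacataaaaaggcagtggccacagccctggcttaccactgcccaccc
C1r: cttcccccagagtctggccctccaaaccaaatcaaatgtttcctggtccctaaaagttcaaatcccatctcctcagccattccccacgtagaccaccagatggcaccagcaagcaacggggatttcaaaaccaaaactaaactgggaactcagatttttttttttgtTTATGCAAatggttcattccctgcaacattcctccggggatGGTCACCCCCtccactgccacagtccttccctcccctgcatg
Each of the 2 windows held 1 C/EBP match, a motif found in 9.22% of 33469 promoter windows of that length. C3 held 5 kappaB matches, counting both strands and overlaps, and C1r held 1, and 42.3% of windows held at least 1. Of the 9 listed genes 4 had an entry, C3, C1r, Cd55 and Cfi, and the Cfi window held neither motif. These are matches of letters, and the motifs were chosen after the sequences and values had been seen. Whether the matches take part in the differences after SNL was not tested.

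Among the inhibitors, Serping1, which inactivates C1r and C1s, rose as they did. Its signals were 2532.6, 3251.5 and 3584.2 in HP SNL ganglia, against 1690.0, 1978.3 and 1343.9 in HP sham ganglia. They were 2492.3, 2644.6 and 3362.1 in LP SNL ganglia, against 985.8, 1701.9 and 941.2 in LP sham ganglia. The groups did not overlap in either line, as for 17.2% of genes with the SNL arrays higher in HP and 16.5% in LP. LP sham replicate 2 stood above the other LP sham arrays. The log2 difference was 1.27 ± 0.25 in LP (adjusted p = 0.00721) and 1.09 ± 0.17 averaged over the lines (adjusted p = 0.00125). In HP it was 0.90 ± 0.25 with an adjusted p of 0.0373, which lay between 0.0124 and 0.179 over 22 alternatives. The HP call was lost in 7 of them: without HP SNL replicate 2 (0.103) or 3 (0.119), without HP sham replicate 1 (0.0909) or 3 (0.127), without LP SNL replicate 2 (0.0516), with median centring (0.053) and with the actin covariate (0.179).

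Cd55, the decay-accelerating factor that dismantles the enzymes cutting C3, was the only one of the 7 genes that fell after SNL, and both of its probe sets did so. The brighter probe set (1387951_at) had signals of 773.9, 710.2 and 532.9 in HP SNL ganglia, against 1648.5, 1509.3 and 1570.3 in HP sham ganglia. It had 501.5, 407.8 and 417.3 in LP SNL ganglia, against 1545.7, 1488.6 and 1612.1 in LP sham ganglia. The sham arrays of both lines lay close together, and the SNL arrays lay far below them. Every LP SNL array was below every HP SNL array, as for 8.33% of genes. This difference between the lines did not pass by limma (adjusted p = 0.178). The log2 difference was -1.24 ± 0.14 in HP, or 2.37-fold lower (adjusted p = 0.000545), and -1.81 ± 0.14 in LP, or 3.51-fold lower (adjusted p = 7.2e-05). Among all 10411 genes Cd55 ranked 205 from the lowest in HP and 40 in LP. Groups without overlap and with the SNL arrays lower occurred for 17.1% of genes in HP and 14.7% in LP.

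The other Cd55 probe set (1370406_a_at) had signals of 699.7, 521.9 and 550.5 in HP SNL ganglia, against 1054.9, 1114.0 and 1150.4 in HP sham ganglia. It had 395.9, 384.0 and 399.5 in LP SNL ganglia, against 1000.0, 1206.4 and 1603.5 in LP sham ganglia. Again no SNL array reached a sham array, as for 15.9% of probe sets in HP and 13.6% in LP. In the fit of all probe sets its log2 difference was -0.92 ± 0.17 in HP (adjusted p = 0.00787) and -1.66 ± 0.17 in LP (adjusted p = 0.000292), beside 5.34% and 5.76% of probe sets called lower. The 2 probe sets of Cd55 correlated at 0.964 over the 12 arrays, which include the differences between groups, and at 0.328 once each group's mean was taken out.

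The window before the Cd55 start is shown as well, with other motifs marked than for the 2 rising components. It lies on the minus strand at chr13:44438102-44438351 of GRCr8, and this start is 812 bases inside the outer end of the annotated gene. Capitals mark matches on either strand to the GC box (GGGCGG, in 30.5% of windows) and to TGACG, the core of cyclic AMP response elements (in 18.2% of windows).
Cd55: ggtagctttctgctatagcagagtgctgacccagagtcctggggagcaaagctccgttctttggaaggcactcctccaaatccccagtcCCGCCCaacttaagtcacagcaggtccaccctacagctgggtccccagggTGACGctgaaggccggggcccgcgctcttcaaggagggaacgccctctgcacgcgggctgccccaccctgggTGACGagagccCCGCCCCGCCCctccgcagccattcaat
It held 3 GC boxes, 2 of them overlapping the same stretch of C and G, and 2 TGACG matches. It held 0 C/EBP matches and 4 kappaB matches on both strands, which are left in lower case. None of the 4 windows held the GAS motif (TTCNNNGAA), the ISRE core (a pair of GAAA with 2 bases between them), an AP-1 site (TGANTCA) or TATAAA.

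Cfi and Cd59b did not pass the test in either line. Cfi, the protease that cuts C3b with the help of cofactors, had signals of 194.8, 197.8 and 274.7 in HP SNL ganglia, against 177.5, 221.4 and 195.5 in HP sham ganglia. It had 251.8, 253.3 and 197.5 in LP SNL ganglia, against 257.1, 206.6 and 242.0 in LP sham ganglia. The groups overlapped in both lines. The log2 difference was 0.15 in HP (95% confidence interval -0.21 to 0.52, adjusted p = 0.619) and -0.01 in LP (-0.38 to 0.36, adjusted p = 0.982). Cd59b, which guards membranes against the attack complex, had 4427.6, 4631.7 and 4242.1 in HP SNL ganglia, against 3661.3, 3869.6 and 3888.0 in HP sham ganglia. It had 4046.2, 3751.8 and 3994.3 in LP SNL ganglia, against 3509.4, 3766.4 and 2892.8 in LP sham ganglia. All HP SNL arrays were above the HP sham arrays, as for 17.2% of genes, while in LP the highest sham array was just above the lowest SNL array. The log2 difference was 0.22 in each line, with intervals of -0.01 to 0.45 in HP and -0.01 to 0.46 in LP (adjusted p = 0.218 and 0.209). Averaged over the lines it was 0.22 ± 0.07 (adjusted p = 0.055), and it passed without LP sham replicate 2 (adjusted p = 0.0322), without the dimmest 25% of genes (0.0392) and with a trended and robust variance (0.0201).

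**Figure D2:**
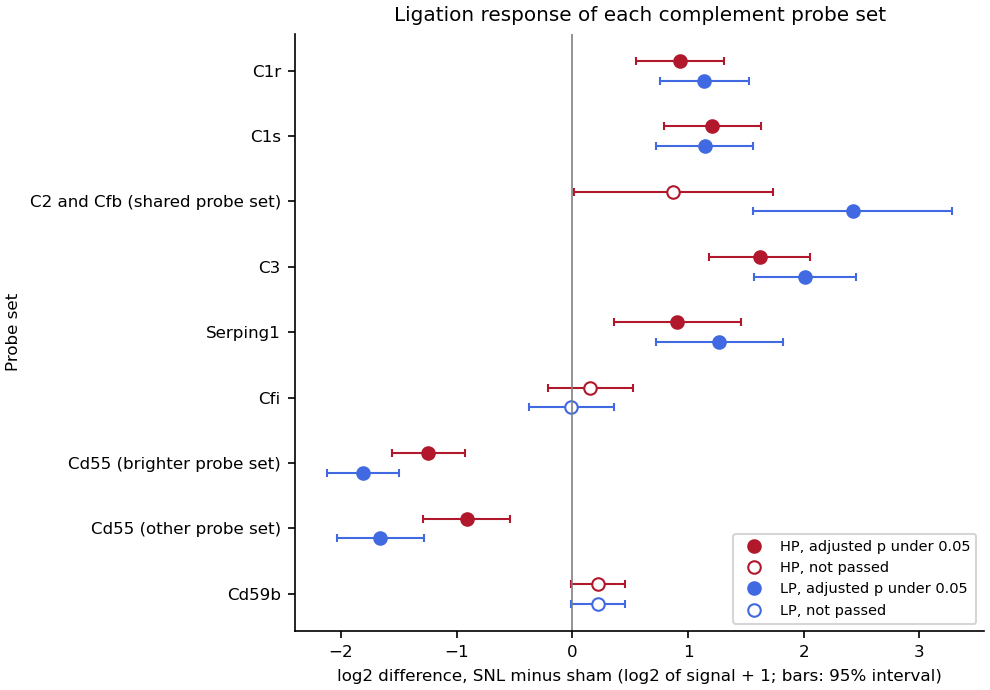
Log2 difference, SNL over sham, of each complement probe set in HP and in LP rats, with filled points past an adjusted p of 0.05, bars for 95% confidence intervals from limma and a line at 0. C1r, C1s, C3 and Serping1 lie above 0 in both lines, both Cd55 probe sets lie below 0, and the intervals of Cfi and Cd59b span 0.

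The comparison of the lines asked whether the complement genes differed between LP and HP rats, without nerve injury and after it. None of the 7 genes passed in LP against HP after sham surgery, beside 0.00961% of all genes (1 gene) called, and none passed after SNL, beside 0.173% (18 genes). At an unadjusted p under 0.05 limma found 1016 and 1110 genes in these comparisons, 9.76% and 10.7% of those tested, and among the 7 genes 0 after sham surgery and 2, Cd55 and C3, after SNL. Cd55 had the largest listed difference after SNL, -0.59 ± 0.14 in LP over HP (adjusted p = 0.178), and every LP SNL array was below every HP SNL array. After sham surgery its difference was -0.03 (adjusted p = 0.971). The other Cd55 probe set had -0.57 ± 0.17 after SNL (adjusted p = 0.285), again with groups that did not overlap, LP being lower, as for 7.31% of probe sets. Groups without overlap and with LP lower occurred for 8.33% of genes after SNL. Beside this, 1 of 13 sensory neuron markers was called lower in LP after SNL, and their sum was 44476.8 to 50613.5 in LP SNL ganglia, against 50882.9 to 53340.8 in HP SNL ganglia. The part of the neurons in the Cd55 difference was not tested. C3 after SNL was 0.46 ± 0.20 higher in LP (adjusted p = 0.445) without overlap, as were 9.1% of genes.

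The difference between the lines in their response to SNL was tested as an interaction, LP response minus HP response, and no gene of the 10411 passed it, 0% of those tested, with 490 at an unadjusted p under 0.05 by limma (4.71%). The interaction of Cd55 was -0.57 ± 0.20 (adjusted p = 0.988) and that of its other probe set was -0.75 ± 0.24 (adjusted p = 0.984). In the fit of all probe sets, too, 0% passed the interaction. That of C3 was 0.39 ± 0.28 (adjusted p = 0.988). The larger rise of C3 and the larger fall of Cd55 in LP were therefore not called as differences between the lines. The probe set of C2 and Cfb had an interaction of 1.55 ± 0.55 (adjusted p = 0.984). Its LP sham signals averaged 41.7 ± 27.6, against 140 ± 19.7 in HP sham ganglia, with no overlap, as for 6.91% of probe sets. This difference was -1.92 ± 0.39 (adjusted p = 0.168), and without LP sham replicate 2 it was -2.41 with an adjusted p of 0.0488. After SNL the LP and HP signals averaged 200.4 ± 43.1 and 256 ± 24.3, a difference of -0.37 ± 0.39 (adjusted p = 0.787). In these fits 0.0441% of probe sets passed for LP against HP after sham surgery and 0.145% after SNL.

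Within the groups, the 5 probe sets that were higher after SNL (C1r, C1s, C2 with Cfb, C3 and Serping1) tended to vary together in LP. LP sham replicate 2 was the highest of its group in 4 of them, LP sham replicate 1 was the lowest in 4, and LP SNL replicate 3 was the highest in 4. The HP arrays were mixed. HP sham replicate 2 was the highest in 3 and the lowest in 2, and HP SNL replicate 2 was the highest in 3 and the lowest in 1. Once each group's mean was taken out, the 10 pairwise correlations of the 5 probe sets over the 12 arrays lay between 0.47 and 0.822, with a median of 0.626. The largest of these deviations were those of C2 with Cfb in LP sham replicates 1 and 2, at -0.92 and 0.99. Against the 2 Cd55 probe sets the same deviations gave -0.52 to 0.335, with a median of -0.036. With the group differences left in, the pairs with Cd55 correlated at -0.964 to -0.642 and those among the 5 at 0.703 to 0.965. These correlations are a description over 12 arrays that share their scaling, and they carry no test.

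**Figure D3:**
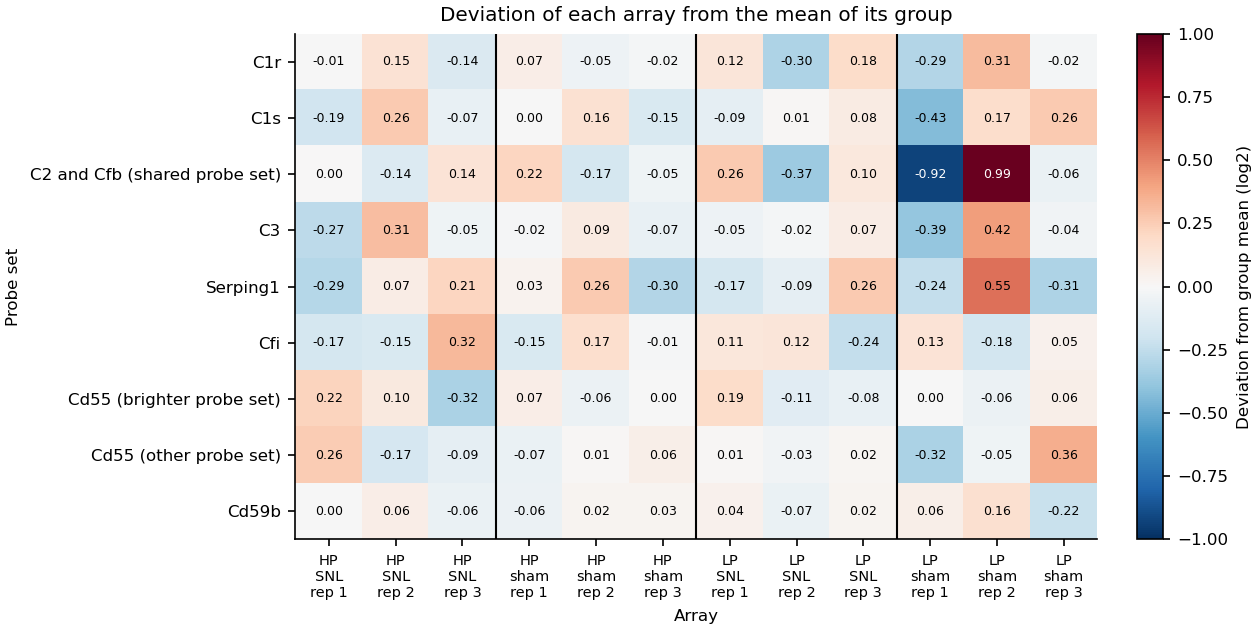
Deviation of the log2 signal of each complement probe set from the mean of its group on each of the 12 arrays, as colour and number. The column of LP sham replicate 2 is high for C1r, C3, Serping1 and the probe set of C2 and Cfb, and both Cd55 probe sets lie within 0.06 of their group mean there.

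Markers of other cells moved with SNL as well. Of 14 macrophage markers 10 were measured, and 7 were higher and 0 lower in each line. Over all genes 7.02% were higher in HP and 7.66% in LP. Aif1, Laptm5 and Tyrobp were called in neither line. The 10 markers had median log2 differences of 0.95 in HP and 0.98 in LP. Their summed signal was 12094.4 to 14111.4 in HP SNL ganglia, against 6987.8 to 7744.7 in HP sham ganglia, and 10934.8 to 12937.1 in LP SNL ganglia, against 6757.8 to 7165.0 in LP sham ganglia. Of 12 fibroblast markers, all measured, 7 were higher in HP and 8 in LP, with 0 lower, beside the same shares of all genes. Their sum was 34820.9 to 38442.3 in HP SNL ganglia, against 23701.7 to 26003.0 in HP sham ganglia, and 30413.7 to 39969.5 in LP SNL ganglia, against 22521.2 to 25443.3 in LP sham ganglia. Of the 13 sensory neuron markers measured, 6 were lower in HP and 7 in LP, with 0 higher, beside 6.61% and 6.79% of all genes lower. Those lower in both lines were Calca, Tac1, Scn9a, Scn10a, Scn11a and Trpv1, joined by Isl1 in LP. Prph, Nefh, Nefm, Nefl, Uchl1 and P2rx3 were called in neither line. The log2 differences of these uncalled markers were -0.14 to 0.08 in HP and -0.19 to -0.04 in LP. The sum of all 13 was 50882.9 to 53340.8 in HP SNL ganglia, against 58904.9 to 62175.2 in HP sham ganglia. In LP it was 44476.8 to 50613.5 in SNL ganglia, against 55084.5 to 63015.3 in sham ganglia. No marker of these lists was at 0 on any array, and the part of these cells in the complement differences was not tested.

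Among the LP SNL arrays the fibroblast sum (30413.7) and the macrophage sum (10934.8) were lowest in replicate 2. Of the 5 rising probe sets, 2 were also lowest in that replicate, C1r and that of C2 and Cfb, while the other 3, C1s, C3 and Serping1, were lowest in replicate 1. Among the LP sham arrays the fibroblast sum was 22521.2, 25443.3 and 24062.0 in replicates 1, 2 and 3, and C1r, C3 and the probe set of C2 and Cfb had the same order. C1s, with its highest signal in replicate 3, and Serping1, with its lowest there, did not. The macrophage sum there was 7165.0, 6915.8 and 6757.8, and the actin ratio had values of 1.877, 1.154 and 0.993. In the HP line that ratio was 1.118 to 1.342 in SNL ganglia, against 1.483 to 1.847 in sham ganglia, with no overlap, whereas in LP the SNL values of 1.113 to 1.125 lay within the sham range. The part of the marker sums in the results was not tested. The actin ratio was fitted only as a covariate among the alternatives. In HP, where the ratio went along with SNL, the part of each cannot be told apart.

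**Figure D4:**
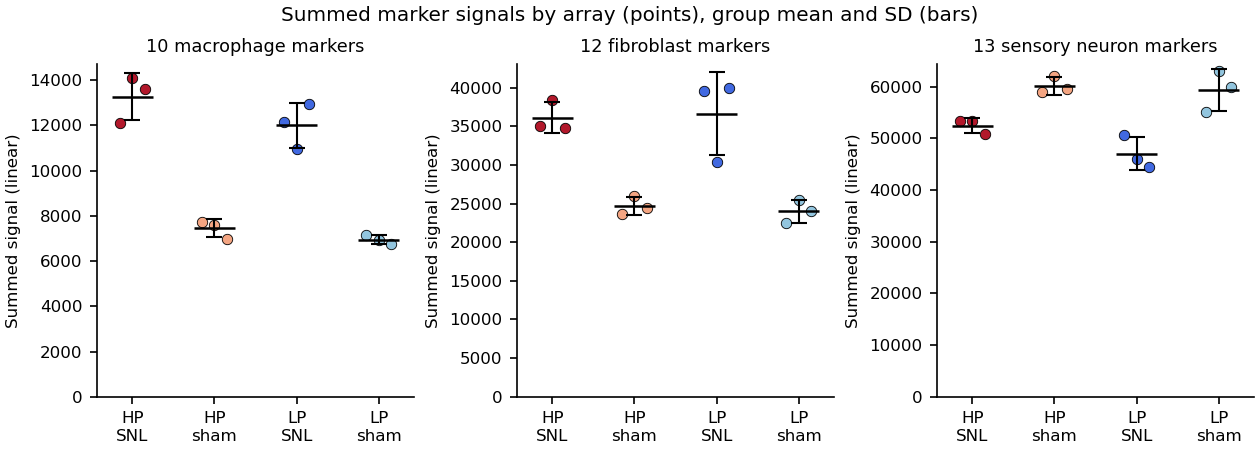
Summed linear signal of the macrophage, fibroblast and sensory neuron marker lists on each of the 12 arrays (points), with bars for the group mean ± SD and the SNL group left of its sham group. The macrophage and fibroblast sums of SNL arrays lie above those of the sham arrays of the same line, and the neuron sums lie below them.

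Among the other complement genes, a list of 41 genes outside the 9, 25 were measured, and 4 were higher and 1 lower in each line, with medians of 0.22 in HP and 0.18 in LP. The 3 genes of C1q, the recognition unit that activates C1r and C1s, accounted for 3 of the 4. C1qb had a mean of 813 ± 80.1 in HP SNL ganglia, against 199 ± 15.5 in HP sham ganglia, a log2 difference of 2.02 ± 0.17 (adjusted p = 0.00014), and in LP its difference was 2.24 ± 0.17 (adjusted p = 7.2e-05). C1qa rose by 1.12 ± 0.13 in HP and 1.34 ± 0.13 in LP, and C1qc by 1.46 ± 0.13 and 1.42 ± 0.13 (adjusted p at most 0.000565). Without C1q, 1 of the other 22 genes was higher and 1 lower in each line. These counts are near the shares over all genes, 7.02% higher and 6.61% lower in HP, and 7.66% and 6.79% in LP. Averaged over the lines 3 of the 22 were higher and 1 lower, beside 13.0% and 11.8% of all genes.

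The gene that rose in HP was C5ar1, the receptor of the C5a fragment on phagocytes, by 0.93 ± 0.15 (adjusted p = 0.00326), and in LP it had 0.44 ± 0.15 (adjusted p = 0.0799). In LP it was Cfd, the protease that activates factor B, by 1.05 ± 0.20 (adjusted p = 0.00722, and 0.0599 when fitted with only the LP arrays), and in HP it had 0.68 ± 0.20 (adjusted p = 0.0528). Averaged over the lines both rose, C5ar1 by 0.68 (adjusted p = 0.00103) and Cfd by 0.87 (adjusted p = 0.00155), and neither gene passed the interaction. Itgam, a chain of complement receptor 3, was at 1.29 ± 0.42 averaged over the lines, only just past the threshold, and lost the call in 15 of 22 alternatives. Susd4, a membrane protein known to inhibit complement, fell with Cd55: its mean was 765 ± 57.0 in HP SNL ganglia, against 1483 ± 59.6 in HP sham ganglia, and 769 ± 51.3 in LP SNL ganglia, against 1313 ± 155 in LP sham ganglia. Its log2 difference was -0.96 ± 0.11 in HP (adjusted p = 0.000545) and -0.77 ± 0.11 in LP (adjusted p = 0.00128).

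**Figure D5:**
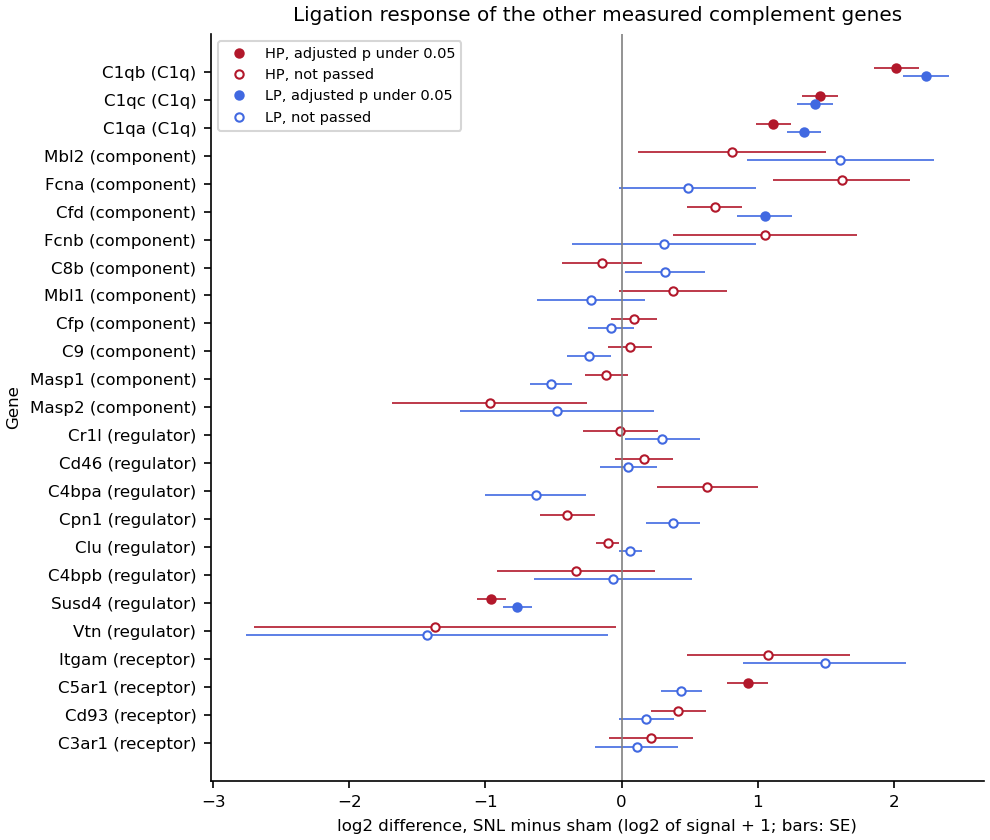
Log2 difference, SNL over sham, of the 25 measured complement genes outside the 9 in HP and in LP, with filled points past an adjusted p of 0.05 and bars for ± SE. The 3 C1q genes are filled above 0 in both lines, and Susd4 is the only gene filled below 0.

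The genes whose log2 signal followed C3 most closely over the 12 arrays, among 5206 genes of at least median brightness, were Mmp2, a matrix metalloprotease (Pearson r = 0.99), Rdh10, a retinol dehydrogenase (0.98), the calcium channel subunit gene Cacna2d1 (0.98), Arhgdib (0.97), and Rgs2, a regulator of G-protein signalling (0.97). Those closest to Cd55 were Rgs4, another such regulator, the granule protein gene Scg2, Wipf3, which encodes a WASP-interacting protein, the acyltransferase gene Agpat3 and Nrn1, which encodes neuritin, all at 0.99. The arrays fall into SNL and sham arrays for every one of these genes, so the correlations describe mainly that difference, and they carry no test.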

How the data were processed

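RNA from 12 samples was measured on Affymetrix arrays. The deposited table holds 1 linear intensity per probe set and array, from 0 to 13930.7, for 15923 probe sets, of which 57 are controls. Per the submitters' processing notes the authors used RMA, with no version given. Trimmed by 2% at each end, however, the mean of each array is 500.1, so the steps behind the values are not settled here. Groups and replicate numbers come from the sample titles. Of 191076 values 109 were below 1, and log2(value + 1) was taken without any other scaling.

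Names came from the platform annotation and were brought up to date with a RefSeq table (GRCr8), for 12748 probe sets through the gene identifier and for 2 through the accession, and 33 names stayed as they were. A lone symbol was given to 12783 probe sets, several to 312 and none to 2771. The brightest probe set stood for each of 10411 genes. A limma model of 4 group means was fitted to the 12 arrays (limma 3.58.1, statmod 1.5.0, R 4.3.3, with 8 residual and 2.05 prior degrees of freedom), for genes and again for all 15866 probe sets. The fit was tested on simulated data. Named genes were the 9 listed, the C1q genes, every other listed complement gene past the threshold after SNL, and the 5 closest to C3 and to Cd55. Lists covered complement, macrophages, fibroblasts, sensory neurons, Schwann cells, satellite glia, endothelium, T cells, neutrophils, hepatocytes, muscle and red blood cells. The genes and lists were chosen with earlier results of these data known. Same-numbered replicates deviated with correlations of -0.158 to 0.098 and were not treated as pairs. Alternatives were another pseudocount, low-signal filter, scaling, variance model, probe set rule, set of arrays, replicate block, actin covariate, and leaving out each array.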

Additional observations from a re-analysis of the deposited data

How the results depend on the processing

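Over 22 alternatives the direction of C1r, C1s, C3, Serping1 and the brighter Cd55 probe set after SNL was the same in each line, as was that of the other Cd55 probe set over the 20 run for it, and of these calls only those of C1r and Serping1 in HP were lost. The genes called in HP numbered 1419, but 816 with the actin covariate, which left 3 of the 5 listed genes called. In LP 1504 genes were called, but 814 when only the arrays compared were fitted. Leaving out 1 array at a time gave 846 to 1489 genes in HP. The low counts were 846 without HP sham replicate 1, 866 without HP sham replicate 3, 945 without HP SNL replicate 2 and 875 without HP SNL replicate 3. It gave 1028 to 1451 in LP, 2166 to 2498 averaged over the lines, 0 to 3 for LP against HP after sham, 1 to 26 after SNL and 0 to 2 for the interaction. Listed genes called then numbered 4 to 5 in HP, 5 in LP and 5 to 6 averaged. For LP against HP after sham, where 1 gene was called, the count was 0 with probe sets averaged per gene, median centring, quantile normalization, only the arrays compared or the replicate block, 3 with the actin covariate, 7 with probe sets tested singly, 6 with trended and robust variance and 5 without the dimmest 25%. After SNL, where 18 were called, it was 9 with the actin covariate, 11 with probe sets averaged, 4 with only the arrays compared, 7 with the replicate block, 52 with trended and robust variance and 39 without the dimmest 25%. For the interaction, with 0 called, the actin covariate gave 1. With the replicate number as a block 1115 genes were called in HP, 1251 in LP and 2288 averaged, and the block changed no call of a listed gene after SNL.

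The log2 differences that changed sign were uncalled and small. Cd55 in LP against HP after sham was 0.021 with the actin covariate and 0.0736 with its probe sets averaged, and leaving out 1 array gave -0.0557 to 0.0079. Its other probe set was at -0.0502 with the actin covariate, and at -0.0096 to 0.3307 with 1 array left out. Leaving out 1 array put Cfi at -0.0075 to 0.2393 in HP, -0.0999 to 0.108 in LP and -0.0086 to 0.1307 averaged. The causes were not tested. Dim signal limits the size of the C2 and Cfb difference.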

Other observations

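Hepatocytes, the main source of plasma complement, had 7 measured markers. None was called in HP and 1 was higher in LP, with a summed signal of 721.7 to 851.7 in HP SNL ganglia, against 722.7 to 862.1 in HP sham ganglia, and 833.7 to 1038.5 in LP SNL ganglia, against 817.9 to 966.3 in LP sham ganglia. Of 6 satellite glia markers 3 were higher and 0 lower in each line. Averaged over the lines 4 were higher and 1 lower by limma, beside 13.0% and 11.8% of all genes. The lower marker was Fabp7, at -0.57 (adjusted p = 0.00987). The sum of all 6 was 7745.9 to 8042.4 in HP SNL ganglia, against 4892.6 to 4950.3 in HP sham ganglia. In LP it was 7592.6 to 7947.4 in SNL ganglia, against 5240.5 to 5655.2 in sham ganglia. Of 6 endothelial markers 2 were higher in HP and 1 in LP. Their sum was 2656.5 to 2973.7 in HP SNL ganglia, against 2096.5 to 2234.7 in HP sham ganglia. In LP the endothelial sum was 2685.1 to 2982.5 in SNL ganglia, against 2123.3 to 2320.6 in sham ganglia. Of 6 Schwann cell markers 1 was higher in each line. Of 7 T cell and 3 neutrophil markers none was called in either line by limma, with 1 T cell marker in each line and 0 neutrophil markers at an unadjusted p under 0.05. Of 7 skeletal muscle markers 2 were lower in HP and 0 in LP, and of 3 red blood cell markers 1 was higher in HP and 0 in LP. The muscle sum was 2733.3 to 2971.9 in HP SNL ganglia, against 3580.5 to 4117.5 in HP sham ganglia. In LP it was 2874.9 to 3178.5 in SNL ganglia, against 2970.0 to 3439.0 in sham ganglia. Over all genes 7.02% were higher and 6.61% lower in HP, and 7.66% and 6.79% in LP.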
